A study of Capra hircus with 6 samples.

Results

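The interferon regulatory factors (IRFs) are the transcription factors that switch interferon and interferon-response genes on and off. They were taken by symbol from the count table as IRF1, IRF2, IRF3, IRF4, IRF5, IRF7, IRF8 and IRF9, which are 8 of its 24779 genes. The libraries came from peripheral blood mononuclear cells (PBMC, the leukocytes with an undivided nucleus, chiefly lymphocytes and monocytes) of goat kids (Capra hircus). The tested kids were fed replacer milk (3 libraries) and the controls the milk of does (3 libraries). The labels call the libraries biological replicates, and the sources used here give no age, breed or sex of the kids.

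Each IRF carries a DNA-binding domain at its amino end that reads the interferon-stimulated response element in promoters. IRF3 and IRF7 are activated by kinases downstream of nucleic acid sensors and start interferon transcription. IRF9 joins STAT proteins in the complex ISGF3, through which type I interferon induces antiviral genes. IRF1 and IRF2 bind the same sites as activator and repressor, IRF5 serves Toll-like receptors, and IRF4 and IRF8 direct the development of B cells, plasma cells, monocytes and dendritic cells. These roles were worked out mainly in human and mouse cells.

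The libraries were of 2 kinds, which crossed the feeds. Replacer-milk library 1 and doe-milk libraries 1 and 2 held transcripts of blood cells. The leukocyte marker PTPRC stood at 1911 CPM (counts scaled to one common library total) in replacer-milk library 1, against 1307 and 1635 CPM in doe-milk libraries 1 and 2. In replacer-milk libraries 2 and 3 and doe-milk library 3 the counts followed gene span (Spearman correlation across genes 0.896, 0.896 and 0.893, against 0.380, 0.374 and 0.387 in the 3 others), and PTPRC stood at 79.4 to 89.2 CPM. The IRFs were therefore compared in the 3 transcript-holding libraries, 1 replacer-milk library against 2 doe-milk libraries, and the 3 length-following libraries are described apart. Library totals ran from 25023210 to 57204363 counts.

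Among the 3 transcript-holding libraries, IRF8 stood apart from the other IRFs. IRF8 is needed for the development of human and mouse monocytes and dendritic cells. It stood at 134 CPM in replacer-milk library 1, against 68.2 and 65.5 CPM in doe-milk libraries 1 and 2. The replacer-milk library was thus about 2.01 times the mean of the doe-milk libraries, which lay close together. The other 7 IRFs lay within a log2 fold change of −0.36 to 0.09 between the feeds. No IRF passed the test over all genes.

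The test was edgeR's quasi-likelihood test over 17356 genes, replacer milk minus doe milk, after TMM scaling, which sets libraries to a common level through the genes that differ least. It called 0 of the 8 IRFs tested at an adjusted p of 0.05, and 0 were called by DESeq2 and by limma voom. Over all genes edgeR called 3, which is 0.0173% of those tested: LOC108637289, higher in replacer milk, and LOC102181554 and LOC102186914, lower, all listed without a symbol. At an unadjusted p below 0.05, 1 IRF passed (IRF8), where 5.35% of all genes did. For IRF8 the log2 fold change was 0.89 (SE 0.19, 95% interval 0.43 to 1.35, edgeR adjusted p = 0.520). The unadjusted p was 0.00306, and 0.588% of all genes had one no larger. The adjusted p ran from 0.0925 to 0.684 over the alternative settings. The replacer-milk side is a single library, taken to vary like the doe-milk libraries. Each gene has 1 residual degree of freedom of its own. The edgeR p-values and intervals therefore lean largely on variance estimates shared across all genes tested. Fewer cells of a type and less RNA per cell cannot be told apart in such libraries.

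**Figure D1:**
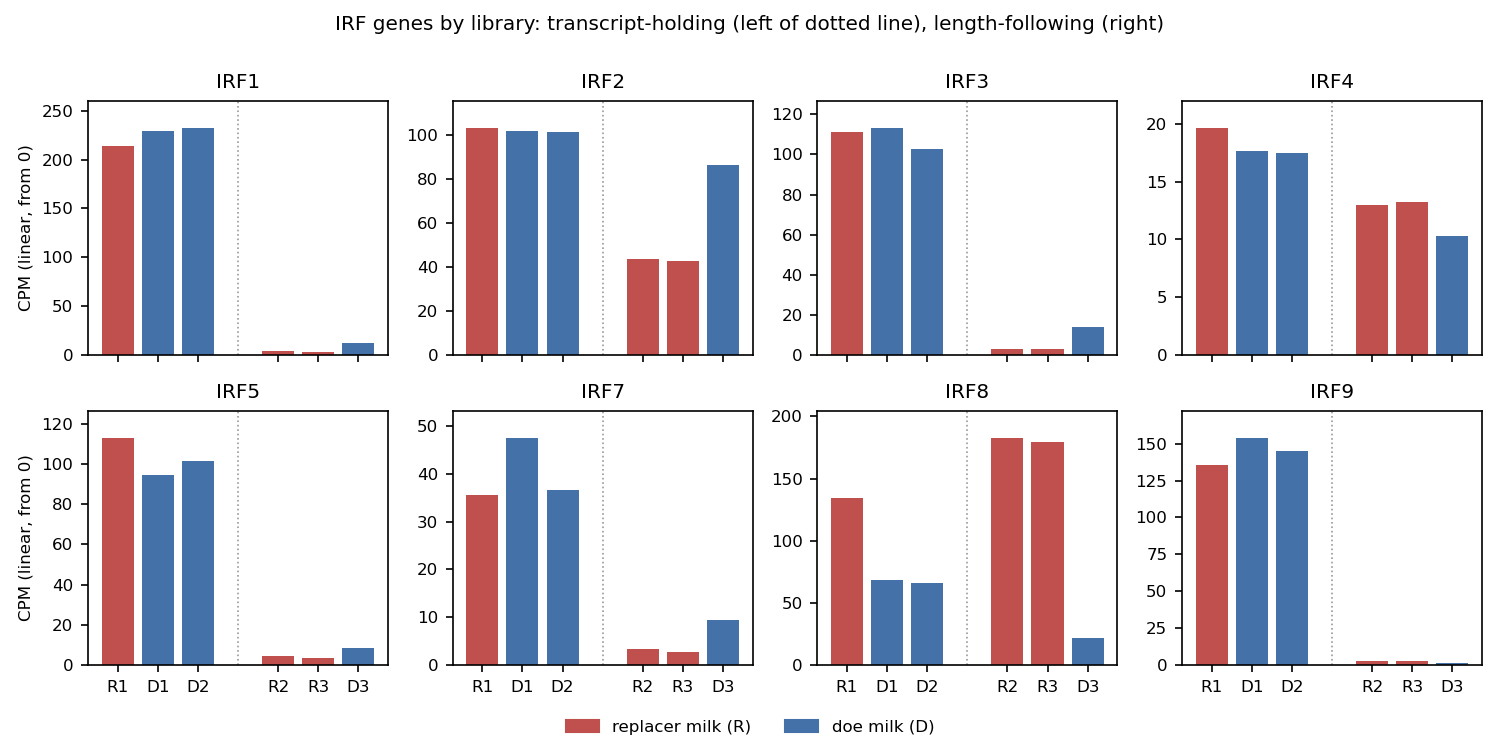
CPM of each IRF in each library, on linear axes from 0 that differ between panels. R is replacer milk and D doe milk, numbered by replicate, with the transcript-holding libraries left of the dotted line. Right of that line the counts follow gene span. IRF8 is higher in each replacer-milk library than in the doe-milk libraries of its kind.

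The IRF8 difference between the feeds was larger than that between doe-milk libraries 1 and 2. On the TMM-scaled axis IRF8 stood at 127 CPM in replacer-milk library 1, against 69.7 and 67.6 CPM in doe-milk libraries 1 and 2. The gap to the nearer doe-milk library was 57.7 CPM, against 2.10 CPM between the doe-milk libraries. A difference between 2 libraries is a poor measure of spread, and this comparison does not set IRF8 apart. IRF4, with a log2 fold change of 0.05, stood at 18.66 scaled CPM in replacer-milk library 1, against 18.04 and 18.02 CPM. It too lay further from the doe-milk libraries than these lay from each other. Over all genes tested, 4.29% had a log2 fold change at least as high as that of IRF8. Of the 3519 tested genes with a mean of at least 50 CPM, 11 (0.313%, IRF8 included) did. Against doe-milk library 1 alone the log2 fold change was 0.86, and against doe-milk library 2 alone it was 0.92. The ratio of IRF8 to IRF4 counts, into which no scaling enters, was 6.83 in replacer-milk library 1, against 3.86 and 3.75 in doe-milk libraries 1 and 2. The ratio of IRF8 to SPI1 (PU.1, the partner with which IRF8 binds composite sites in myeloid and B cells) was 0.671 in replacer-milk library 1, against 0.293 and 0.318. These pairs were chosen after their values were seen.

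IRF4, the closest relative of IRF8 and a factor of activated B and T cells and plasma cells, stood at 19.6 CPM in replacer-milk library 1, against 17.7 and 17.5 CPM in doe-milk libraries 1 and 2. Its log2 fold change was 0.05 (SE 0.22, 95% interval −0.49 to 0.59, edgeR adjusted p = 0.994). The interval allows a change of up to about 1.51-fold upward, so a small difference was not detectable here. IRF5, which carries Toll-like receptor signals to inflammatory cytokine genes, stood at 113 CPM in replacer-milk library 1, against 94.4 and 101 CPM in doe-milk libraries 1 and 2. Its log2 fold change was 0.09 (SE 0.19). After TMM scaling both lay above the doe-milk libraries in replacer-milk library 1, as did IRF8.

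Of the factors that start interferon transcription, IRF7, itself induced by interferon, stood at 35.5 CPM in replacer-milk library 1, against 47.5 and 36.6 CPM in doe-milk libraries 1 and 2. Its log2 fold change was −0.36 (SE 0.25, 95% interval −0.96 to 0.25, edgeR adjusted p = 0.979). Leaving out doe-milk library 1 gave −0.16, and leaving out library 2 gave −0.53. The main value was no larger than the difference between the doe-milk libraries themselves, which was −0.36 on the scaled log2 axis, library 2 minus library 1. IRF3, present in most cells before any stimulus, stood at 111 CPM in replacer-milk library 1, against 113 and 103 CPM in doe-milk libraries 1 and 2. Its log2 fold change was −0.07 (SE 0.20).

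IRF9, the DNA-binding part of ISGF3, stood at 136 CPM in replacer-milk library 1, against 154 and 145 CPM in doe-milk libraries 1 and 2 (log2 fold change −0.25, SE 0.19, edgeR adjusted p = 0.979). Its partner STAT2 stood at 66.6 CPM in replacer-milk library 1, against 68.1 and 75.3 CPM in doe-milk libraries 1 and 2. The ratio of IRF9 to STAT2 counts was 2.04 in replacer-milk library 1, between those of doe-milk libraries 1 and 2, at 2.26 and 1.93.

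IRF1, an activator induced by interferon gamma, stood at 214 CPM in replacer-milk library 1, against 229 and 232 CPM in doe-milk libraries 1 and 2 (log2 fold change −0.22 with SE 0.19, adjusted p = 0.979 in edgeR). The long non-coding RNA LOC108636385 spans 78.9% of the IRF1 gene in the RefSeq gene table of the goat assembly ARS1.2. It had 11298 counts in replacer-milk library 1, where IRF1 had 11089. In doe-milk libraries 1 and 2 it had 11373 and 13259 counts, where IRF1 had 11003 and 13283. In these 3 libraries the IRF1 counts were 96.7% to 100.2% of those of the overlapping gene. No source used here says how reads in the shared stretch were assigned, and the IRF1 values are uncertain. For no other IRF did that table list an overlapping gene. IRF2, the repressor that binds the sites of IRF1, stood at 103 CPM in replacer-milk library 1, against 102 and 101 CPM in doe-milk libraries 1 and 2 (log2 fold change −0.09, SE 0.19).

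Counted by position after TMM scaling, 5 of the 8 IRFs tested (IRF1, IRF2, IRF3, IRF7 and IRF9) lay below both doe-milk libraries in replacer-milk library 1, where 33.2% of all genes did. The other 3 (IRF4, IRF5 and IRF8) lay above both, where 34.4% of all genes did. The median log2 fold change was −0.080 over the 8 IRFs and −0.0057 over all genes. Without TMM scaling the median of all genes moved to 0.11 and that of the IRFs to 0.031, and 3 IRFs (IRF1, IRF7 and IRF9) lay below both, where 23.8% of all genes did, and 4 above, where 46.9% did, while the log2 fold changes of IRF2 and IRF3 became 0.019 and 0.044. The direction of IRF2 and IRF3 thus rests on the scaling, and with upper quartile scaling 4 IRFs lay below both.

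**Figure D2:**
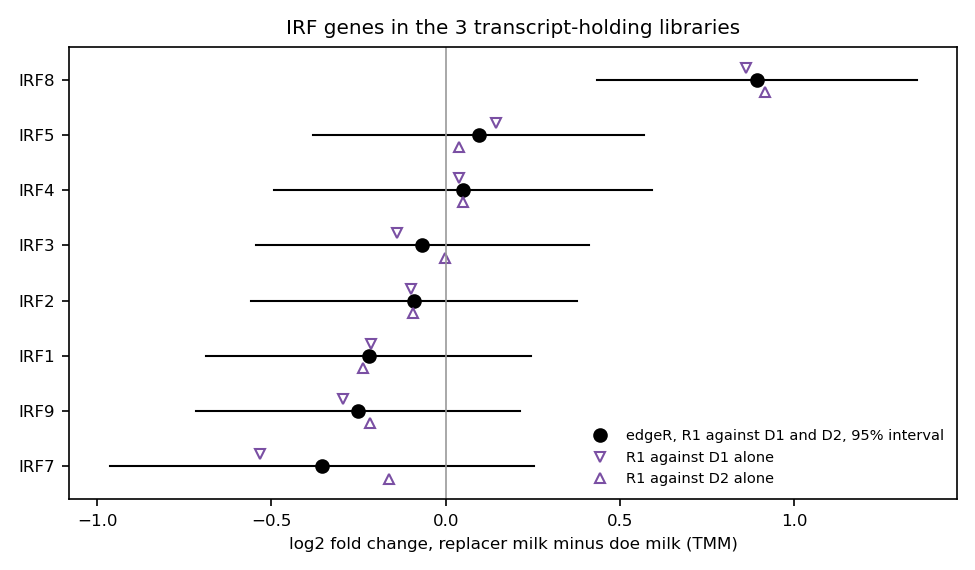
Log2 fold change of each tested IRF in the 3 transcript-holding libraries, replacer milk minus doe milk, TMM-scaled. Points are edgeR estimates with 95% intervals, and open triangles set replacer-milk library 1 against each doe-milk library alone. The IRF8 interval, 0.43 to 1.35, is the one that leaves out 0.

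The genes that carry signals to IRF3, IRF5 and IRF7 lay on both sides of the doe-milk libraries. Of 28 sensors, adaptors and kinases tested, 0 were called, 12 lay below both doe-milk libraries and 6 above both (8 and 12 without TMM scaling), and the median log2 fold change was −0.068. Over all genes, 33.2% lay below both and 34.4% above both (23.8% and 46.9% without TMM scaling). The nucleic acid sensor ZBP1 stood at 69.4 CPM in replacer-milk library 1, against 109 and 129 CPM in doe-milk libraries 1 and 2 (log2 fold change −0.88 with SE 0.22, adjusted p = 0.671 in edgeR). The RNA sensor IFIH1 (MDA5) stood at 57.4 CPM, against 98.6 and 77.3 CPM, and its regulator DHX58 at 31.9 CPM, against 44.0 and 50.1 CPM. TLR9, the endosomal DNA receptor, lay above both doe-milk libraries, at 9.08 CPM in replacer-milk library 1, against 4.49 and 3.39 CPM (log2 fold change 1.09, SE 0.36, edgeR adjusted p = 0.811). TBK1, the kinase of IRF3 and IRF7, stood at 26.6 CPM, against 26.4 and 25.9 CPM.

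Of 10 interferon receptor and JAK-STAT genes, 0 were called, and 5 lay below and 2 above both doe-milk libraries (4 and 4 without TMM scaling). The shares of all genes were 33.2% below and 34.4% above (23.8% and 46.9% without TMM scaling). IFNGR1, a chain of the interferon gamma receptor, stood at 40.4 CPM in replacer-milk library 1, against 58.0 and 49.5 CPM in doe-milk libraries 1 and 2, and its partner IFNGR2 at 131 CPM, against 160 and 155 CPM. The kinase JAK1 stood at 579 CPM, against 378 and 486 CPM. IL10RB, a shared receptor chain, stood at 90.9 CPM, against 113 and 89.7 CPM. Of the interferon genes listed, 3 were analysed. IFNG, which encodes interferon gamma, stood at 1.04 CPM in replacer-milk library 1, against 1.50 and 1.89 CPM. IFNK and IFNE had 0 counts in each, which allows up to 0.0578 CPM in replacer-milk library 1 and 0.0624 and 0.0524 CPM in doe-milk libraries 1 and 2 (3 counts per library).

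Partners and corepressors of the IRFs had a median log2 fold change of 0.024 over 17 genes, 0 of them called, with 5 below and 6 above both doe-milk libraries (4 and 10 without TMM scaling). Among all genes 33.2% lay below and 34.4% above both (23.8% and 46.9% without TMM scaling). JUNB, which pairs with BATF at sites shared with IRF4 and IRF8, stood at 579 CPM in replacer-milk library 1, against 1179 and 879 CPM in doe-milk libraries 1 and 2 (log2 fold change −0.94, SE 0.25, edgeR adjusted p = 0.689). TCF3, a B cell factor, stood at 158 CPM, against 99.7 and 111 CPM. The lymphocyte factors IKZF3 and ETS1 stood at 273 and 1679 CPM in replacer-milk library 1, against 170 and 203 CPM for IKZF3 and 1154 and 1375 CPM for ETS1 in doe-milk libraries 1 and 2. Of 14 regulators of IRF proteins or their signals, 0 were called and the median was −0.071. SOCS3, a feedback inhibitor of JAK kinases, stood at 41.4 CPM, against 71.0 and 62.1 CPM. TRIM26, a ubiquitin ligase that acts on IRF3, stood at 113 CPM, against 80.7 and 83.8 CPM, and its relative TRIM21 at 43.7 CPM, against 35.0 and 36.9 CPM. RNF125, a ligase that acts on RNA sensors, stood at 34.1 CPM, between the doe-milk values of 44.2 and 30.2 CPM.

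The genes downstream of ISGF3 had a median further below 0 than the value of IRF9. Of 24 measured, 23 lay below both doe-milk libraries in replacer-milk library 1, where 33.2% of all genes did, with a median log2 fold change of −0.77, and 0 were called. Without TMM scaling 20 did, where 23.8% of all genes did. RSAD2, an antiviral enzyme, had a log2 fold change of −1.88 (SE 0.22, edgeR adjusted p = 0.218), and the ubiquitin-like ISG15 had −1.83 (SE 0.22). For MX2 and IFIT3, both antiviral, the values were −1.55 and −1.67. IFI35, DTX3L and TRIM25, at −0.17, −0.16 and −0.085, lay nearer to 0 than IRF9. DDX60, the 1 gene above both, stood at 0.212 CPM in replacer-milk library 1, against 0.125 and 0.157 CPM. IRF7 and IRF9 are induced by ISGF3 in human and mouse cells, and their log2 fold changes of −0.36 and −0.25 lay nearer to 0 than that median. The difference between IRF9 and its targets was not tested.

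Targets of IRF1 in antigen presentation lay nearer to the doe-milk libraries. Of 16 measured, 8 lay below and 2 above both (6 and 5 without TMM scaling), 0 were called, and the median log2 fold change was −0.13. The shares of all genes were 33.2% below and 34.4% above both (23.8% and 46.9% without TMM scaling). The chemokine CXCL10 stood at 5.47 CPM in replacer-milk library 1, against 13.4 and 13.4 CPM in doe-milk libraries 1 and 2 (log2 fold change −1.40, SE 0.29, edgeR adjusted p = 0.512), and the checkpoint ligand CD274 at 9.44 CPM, against 22.2 and 14.5 CPM. B2M, which completes the MHC class I molecule, had a log2 fold change of −0.34. CIITA, the master coactivator of MHC class II, which IRF1 helps to induce in human and mouse cells, stood at 198 CPM in replacer-milk library 1, against 111 and 125 CPM (log2 fold change 0.64, SE 0.19, edgeR adjusted p = 0.761).

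Among 16 genes controlled by IRF4 or IRF8, 6 lay below and 5 above both doe-milk libraries (3 and 6 without TMM scaling), 0 were called, and the median log2 fold change was −0.15. CIITA, above both, is also in the list of IRF1 targets, and IKZF3, above both, in that of partners. The counts of these lists are therefore not independent. Over all genes, 33.2% lay below and 34.4% above both (23.8% and 46.9% without TMM scaling). IL12B, a subunit of interleukin 12 and a target of IRF8 in mouse macrophages, stood at 3.47 CPM in replacer-milk library 1, against 0.375 and 1.05 CPM in doe-milk libraries 1 and 2 (log2 fold change 2.16, SE 0.67, edgeR adjusted p = 0.783). PRDM1, the plasma cell factor that IRF4 induces, stood at 44.1 CPM in replacer-milk library 1, against 45.0 and 71.2 CPM.

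**Figure D3:**
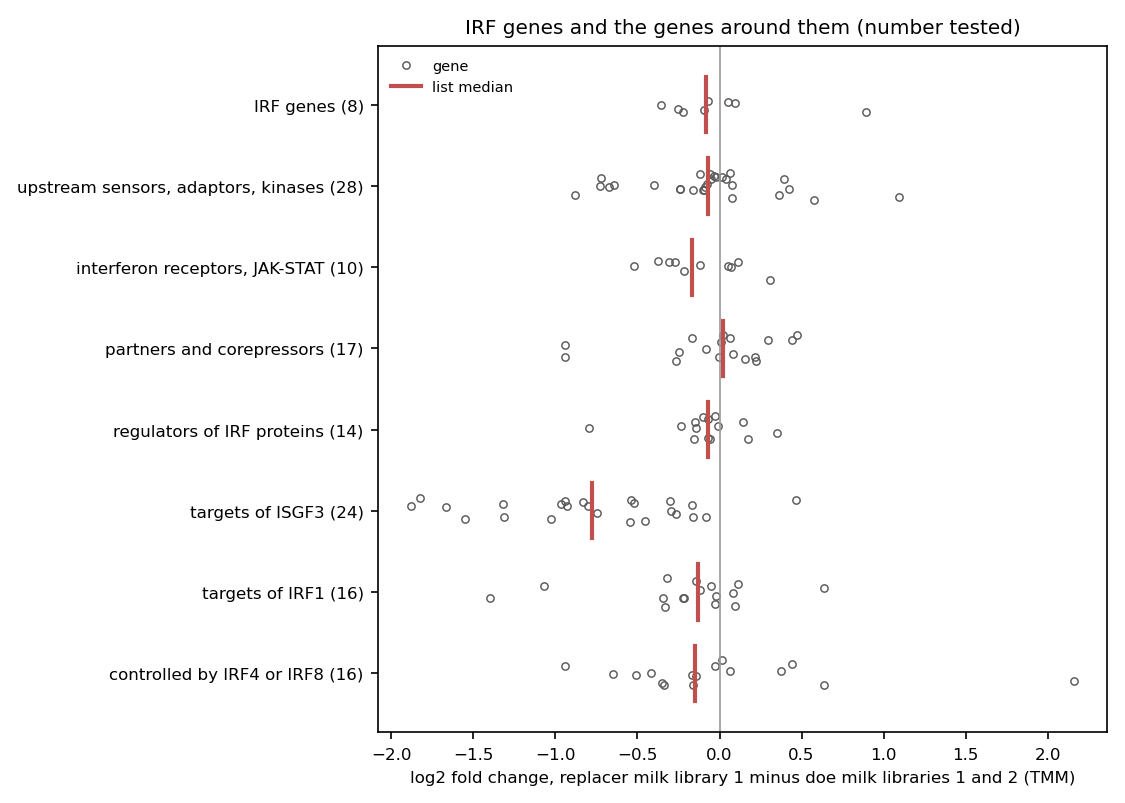
Log2 fold change of each gene (circles) in the IRF list and 7 lists around it, replacer-milk library 1 minus doe-milk libraries 1 and 2, with list medians as red bars and the number tested in brackets. The ISGF3 targets centre on −0.77, and IRF8 at 0.89 lies apart from the other IRFs.

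Marker lists of the cells known to express IRF8 had median log2 fold changes from −1.13 to 0.00515. Of all genes, 34.4% lay above and 33.2% below both doe-milk libraries (46.9% and 23.8% without TMM scaling), the shares to set beside each list. For B cells, 4 of 11 markers lay above and 4 below both (6 and 2 without TMM scaling), with a median log2 fold change of −0.011. Their summed level was 2990 CPM in replacer-milk library 1, against 2723 and 2655 CPM in doe-milk libraries 1 and 2. CR2, the complement receptor of mature B cells, stood apart at 25.7 CPM in replacer-milk library 1, against 6.87 and 5.56 CPM (log2 fold change 1.94, SE 0.27, edgeR adjusted p = 0.261), and FCRLA at 58.0 CPM, against 76.6 and 85.6 CPM. For monocytes, 3 of 9 lay above and 1 below both, with a median of 0.00515 and a sum of 1139 CPM, against 1009 and 1040 CPM. For conventional dendritic cells, 0 of 8 lay above and 4 below both, with a median of −1.13 and a sum of 66.6 CPM in replacer-milk library 1, against 126 and 55.2 CPM. The 4 below both had few counts. CD1E, CLEC9A, XCR1 and FLT3 stood at 0.385, 0.308, 0.443 and 1.45 CPM in replacer-milk library 1, and at up to about 1.93 CPM in doe milk. FCER1A and BATF3, which lay between the doe-milk libraries, had SEs of 1.68 and 1.00. The median of this list is therefore uncertain. For plasmacytoid dendritic cells, a list that includes IRF7, 2 of 9 lay above and 5 below both, with a median of −0.26 and a sum of 583 CPM, against 655 and 596 CPM. IL3RA, a marker of these cells, stood at 16.9 CPM, against 43.0 and 24.2 CPM. No marker of these 4 lists that is in the table was at 0 in these libraries. The part of cell composition in the IRF8 difference was not tested.

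Markers of other cells are given for the same libraries. The sum of 11 neutrophil markers was 326 CPM in replacer-milk library 1, against 866 and 477 CPM in doe-milk libraries 1 and 2, and 7 of the 11 lay below both, where 33.2% of all genes did. The sum of 8 plasma cell markers was 860 CPM, against 1580 and 1117 CPM, and 6 of the 8 lay below both. The sum of 7 erythroid markers was 631 CPM, against 1637 and 1813 CPM. HBBC, a beta-type globin, made up 607 CPM of it, against 1619 and 1794 CPM. Of the 6 erythroid markers tested, 3 lay below both doe-milk libraries and 1 above both, where 33.2% and 34.4% of all genes did. The 1 above both, ALAS2, stood at 9.62 CPM, against 1.93 and 5.12 CPM. Platelet markers summed to 857 CPM, against 716 and 1055 CPM, of which TUBB1, the tubulin of platelets, made up 555 CPM, against 406 and 648 CPM. Of the 10 platelet markers, 6 lay below both doe-milk libraries and 0 above both, where 33.2% and 34.4% of all genes did. Markers of NK and cytotoxic cells summed to 379 CPM, against 308 and 514 CPM, and T cell markers to 1887 CPM, against 1734 and 1500 CPM.

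**Figure D4:**
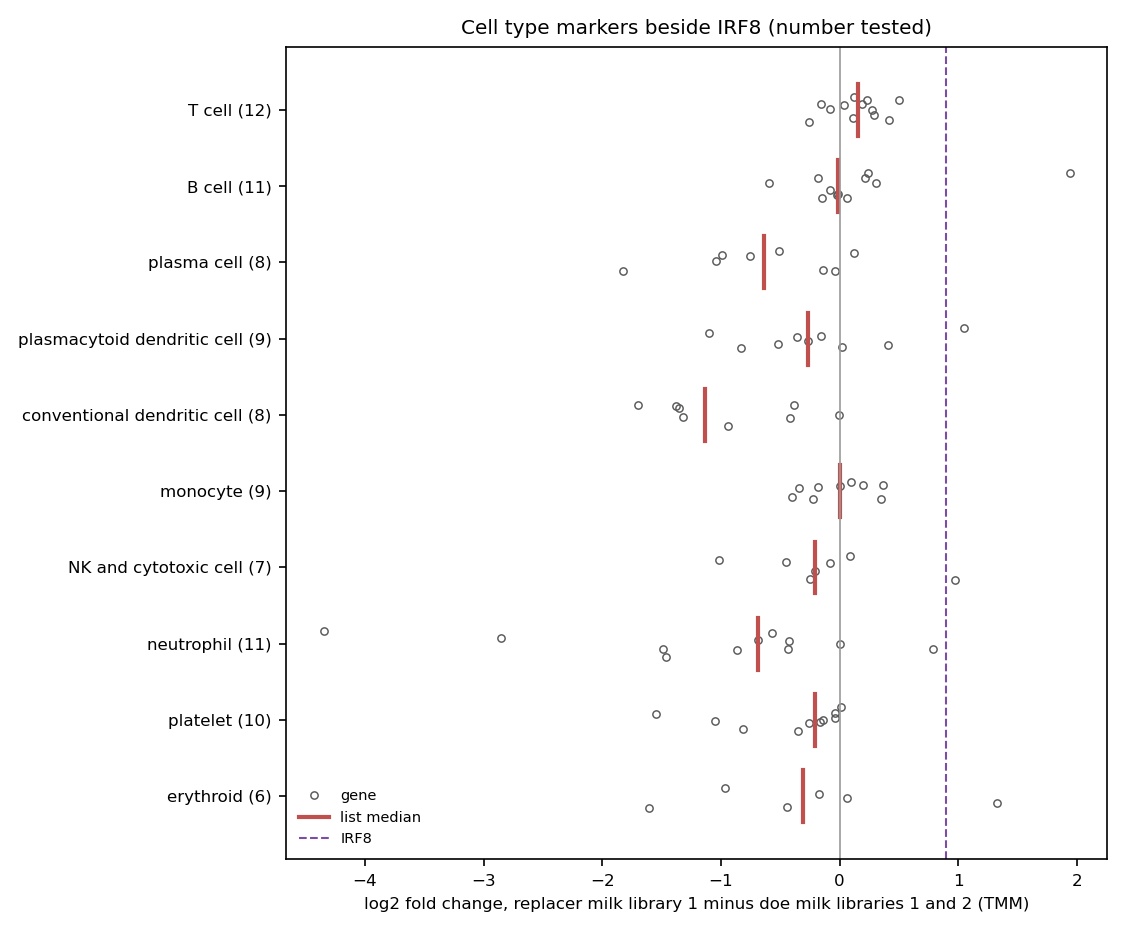
Log2 fold change of each cell type marker (circles), replacer-milk library 1 minus doe-milk libraries 1 and 2, with list medians as red bars and the number tested in brackets. The dashed line is IRF8 at 0.89, above the median of each list.

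The genes whose pattern lay nearest to that of IRF8 over the 3 transcript-holding libraries were CAPG, TTC21B and PEAK1. Likeness was the root mean square difference of centred log2 CPM, over 3 libraries and 8106 other genes. It was 0.015 for CAPG, an actin-capping protein of macrophages, which stood at 74.4 CPM in replacer-milk library 1, against 38.8 and 36.7 CPM in doe-milk libraries 1 and 2. It was 0.032 for TTC21B and 0.042 for PEAK1. For IRF7 the nearest were UBE2V2 (0.0084), PRICKLE4 (0.010) and POLR2L (0.010), none of them a target of ISGF3 in the list used. With 3 libraries many genes share a pattern, and no p was given.

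The 3 length-following libraries were given no test of their own, because their counts follow gene span. Replacer-milk libraries 2 and 3 stand there against a single doe-milk library. Among the IRFs, IRF8 had the widest gap upward. It stood at 182 and 179 CPM in replacer-milk libraries 2 and 3, against 21.4 CPM in doe-milk library 3, or 8.54 and 8.38 times as much. B2M stood at only 2.99 and 4.42 CPM in replacer-milk libraries 2 and 3 and 4.88 CPM in doe-milk library 3. In the transcript-holding replacer-milk library 1 B2M stood at 8383 CPM. Whether the IRF8 counts of the length-following libraries come from its transcripts was not tested. Of 21400 genes, 1.48% had replacer-milk values at least that many times the doe-milk value. Per kb of gene span, IRF8 counts were 13.2 and 12.9 times the median of all protein-coding genes in replacer-milk libraries 2 and 3, above 98.7% of genes in each, and 1.29 times in doe-milk library 3, above 65.4% of genes.

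Other IRFs differed in these libraries in either direction. In both replacer-milk libraries, 3 of the 8 IRFs lay above doe-milk library 3, where 38.1% of genes did, and 5 lay below it, where 56.9% did. IRF9 stood at 2.54 and 2.66 CPM in replacer-milk libraries 2 and 3, against 1.40 CPM in doe-milk library 3, and IRF4 at 13.0 and 13.3 CPM, against 10.3 CPM. IRF1 stood at 3.61 and 2.96 CPM, against 12.3 CPM, IRF3 at 2.88 and 2.81 CPM, against 13.7 CPM, and IRF7 at 3.43 and 2.77 CPM, against 9.31 CPM. IRF2, whose gene is the longest of the 8 at 83.7 kb, stood at 43.8 and 42.7 CPM, against 86.4 CPM, and IRF5 at 4.28 and 3.37 CPM, against 8.67 CPM. On these CPM, which are not TMM-scaled, IRF2, IRF5 and IRF9 lay on opposite sides of doe milk in the 2 kinds of library. With TMM scaling of the transcript-holding libraries, IRF2 lay below doe milk in both kinds. These differences were not tested.

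**Figure D5:**
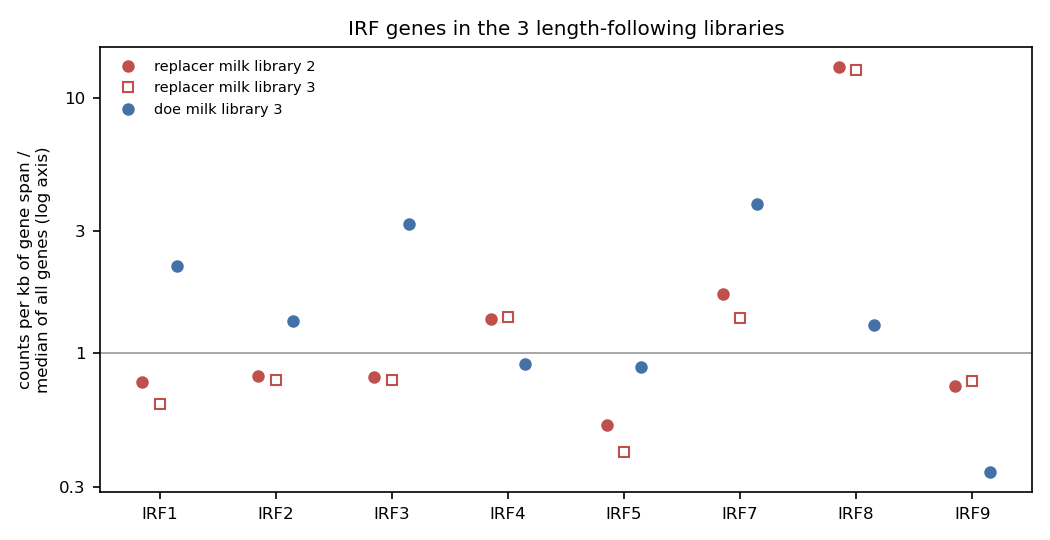
Counts per kb of gene span of each IRF in the 3 length-following libraries, as a multiple of the median over protein-coding genes in the same library, on a log axis. IRF8 lies at 13.2 and 12.9 in replacer-milk libraries 2 and 3 and at 1.29 in doe-milk library 3.

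Over all 6 libraries, the design as labelled, edgeR called 0 of the 8 IRFs and 0 of 21431 genes (0.0%), with 123 genes (0.574%) and 0 IRFs at an unadjusted p below 0.05. DESeq2 called 1 gene, TNNC2 of skeletal muscle, and limma voom called 0. For IRF1, IRF3, IRF5 and IRF9 DESeq2 gave no p in this comparison. IRF8 was the 1 IRF for which all replacer-milk libraries lay above all doe-milk libraries, where 1.89% of genes did, and 0 IRFs lay wholly below, where 1.08% did. After the scaling of that fit it stood at 190, 128 and 124 CPM in replacer-milk libraries 1, 2 and 3, against 104, 100 and 13.2 CPM in doe-milk libraries 1, 2 and 3. The groups did not overlap, though the counts of replacer-milk libraries 2 and 3 and doe-milk library 3 follow gene span. The log2 fold change of IRF8 was 1.02 (SE 1.01, 95% interval −1.43 to 3.47, edgeR adjusted p = 0.987). Without doe-milk library 3 it was 0.53. With the kind of library as a term the log2 fold change of IRF8 was 2.07 (edgeR adjusted p = 0.381), and over all alternatives of this comparison its adjusted p ran from 0.381 to 1.000. For the other IRFs the spread followed the kind of library, with SEs from 0.88 for IRF4 to 2.34 for IRF9. Their log2 fold changes ran from −1.30 for IRF7 to −0.38 for IRF4, and without replacer-milk library 1 from −6.75 for IRF1 to −1.18 for IRF4.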

How the data were processed

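The labels' protocols give TRIzol extraction of total RNA from goat PBMC and library preparation by NEBNext Ultra II RNA. The table of raw counts was deposited by the authors with whole numbers for 6 libraries, and every row names a gene. The submitters' processing notes list bcl2fastq 2.19.0.316, fastp 0.22.0, STAR 2.7.10a and, for counting, featureCounts 2.0.0. The sources used here give no parameters, strand setting, genome build or annotation for these. No coordinates are therefore printed, and overlapping genes cannot be told apart by strand. Transcript lengths were not used. In the length-following libraries, levels were compared between genes as counts per kb of gene span. In the transcript-holding libraries, count ratios of gene pairs and sums of marker CPM were compared between libraries, with no correction for length. The IRF1 counts were also set beside those of the overlapping gene.

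Column names match the sample descriptions. CPM were computed from the counts and the library totals. After the filterByExpr filter and TMM scaling, edgeR 4.0.16 (R 4.3.3) gave two-sided quasi-likelihood tests with robust dispersions, with Benjamini-Hochberg adjustment over all genes tested. Each standard error is the size of the log2 fold change over the square root of the F statistic. p-values measure the spread between libraries, since no source used here says more of the animals than that the replicates are biological. Gene spans came from the RefSeq table of ARS1.2, matched to 92.9% of genes. Alternatives were other scalings and filters, DESeq2 1.42.0, limma 3.58.1 (voom), dispersions not robust, a replicate block, each library left out, replacer-milk libraries 2 and 3 summed, and a term for library kind.

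The IRFs, gene lists and tests were chosen with earlier results of these data known. Named genes are all IRFs, up to 4 members of each list with the smallest p, and the 3 genes nearest in pattern to each of the 2 IRFs with the largest absolute log2 fold change, with a mean of at least 10 CPM. TBK1, STAT2, SPI1, B2M, IFNK, IFNE, DDX60 and PRDM1 were named for their roles after their values were seen. IFI35, DTX3L, TRIM25, TUBB1, FLT3 and BATF3 were named for their values. Some genes are not reported here.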

Additional observations from a re-analysis of the deposited data

How the results depend on the processing

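No alternative that gave a test called an IRF between the feeds, in the 3 transcript-holding or in all 6 libraries, where DESeq2 gave no p for IRF1, IRF3, IRF5 and IRF9. The number of all genes called in the transcript-holding libraries was 3, and it was 5 with RLE scaling, 5 with upper quartile scaling, 90 with no filter, 0 with at least 1 CPM in every library, 148 with DESeq2, 0 with limma voom and 1 with dispersions not robust. Over all 6 libraries it was 0, and 1 with DESeq2 and 1 with library kind as a term. Without TMM scaling, 3 in place of 5 IRFs lay below both doe-milk libraries, the median log2 fold change of the IRFs was 0.031 in place of −0.080, and the values of IRF2 and IRF3 were 0.019 and 0.044. Leaving out each doe-milk library gave that median as −0.118 to −0.048 and left the number below at 5. It gave IRF7 as −0.53 to −0.16, IRF3 as −0.14 to −0.0018 and IRF5 as 0.038 to 0.14. The IRF8 log2 fold change ran from 0.86 to 1.004 over its 10 alternatives in the transcript-holding libraries and from 0.53 to 2.07 over its 17 in all 6, always positive. Over all 6 libraries IRF4 had a negative log2 fold change (−0.38) that was 0.013 without scaling, 0.0074 with at least 1 CPM in every library and 0.28 with library kind as a term, and IRF9 (−1.23) had 0.35 with library kind as a term. Without replacer-milk library 1 IRF9 had −6.45 and IRF4 −1.18, and without replacer-milk library 2 or 3 IRF9 had −0.65 and IRF4 −0.11 and −0.12. The cause was not tested.

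Replicate numbers are shared by the feeds, but libraries with the same number differ in kind for number 2. Their deviations from the group means correlated across genes at 0.897, −0.888 and 0.924 for numbers 1, 2 and 3. Libraries numbered 1, and those numbered 3, share a kind, so these signs cannot decide whether the numbers pair the libraries. No source used here says that they do, and they were not taken to. With the replicate number as a block, 0 genes and 0 IRFs were called over all 6 libraries, and the IRF8 log2 fold change was 1.43 (edgeR adjusted p = 0.956). A block could not be fitted in the 3 transcript-holding libraries, which leave it no residual degree of freedom, and leaving out a doe-milk library there gives a value with no test.

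Each IRF had 849 to 13283 counts in the transcript-holding libraries.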
